A study of Mus musculus with 4 samples.

Results

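The regions described here are stretches of open chromatin between genes in which the peak caller placed at least 3 separate summits within less than 3 kb. They come from the 1 list of peaks deposited for a bulk ATAC-seq study of mouse colonic organoids. A region was chosen when it lay on chromosomes 1 to 19, carried 3 or more summit records, and had its strongest summit outside every annotated gene at 1 to 100 kb from the nearest outer end of a protein-coding gene. Of 113404 regions in the list, 1115 met the rule (0.983%, 95% Wilson interval 0.927 to 1.04%), and they are called members below. The peak calls themselves (summit number, width and summit position) chose the members, so their strength, width and summit number are given as a description, with no test.

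ATAC-seq maps open chromatin through the places where Tn5 transposase can insert adapters. The 4 libraries came from wild-type (WT) colonic epithelial organoids of 4 groups: colitis organoids with 10 µM T-5224, an inhibitor of the AP-1 transcription factor, colitis organoids with 0.1% DMSO, control organoids with 10 µM T-5224, and control organoids with 0.1% DMSO. All were treated for 24 h in 1 batch, then frozen, thawed and profiled from nuclei, and each group is 1 library without a replicate. The list holds no value for a single library, and it is unstated which of the 4 libraries the peaks were called on. T-5224 was therefore not set against DMSO, nor colitis against control, and the members may describe all groups or some of them.

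Open chromatin between genes often marks enhancers, stretches of DNA where transcription factors bind and raise the transcription of a gene that may lie some distance away. It also marks promoters of noncoding genes, insulators, and small genes read by RNA polymerase III, such as those of tRNAs. Several factors or nucleosome-free sites close together can give several summits in 1 region. AP-1 is a dimer of Fos and Jun family proteins that binds many enhancers of epithelial cells and responds to growth factors and stress.

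Some members carry an annotated noncoding promoter at their strongest summit, and the printed sequences show what such a summit lies on. The windows are RefSeq promoter sequences on GRCm38.p6, the assembly of mm10, and run from 250 bases before to 50 bases after the annotated start of a long noncoding RNA (lncRNA), on its own strand from 5′ to 3′. Chaserr is shown because it lies in the strongest member with such a window, Gm38543 because it lies in the stronger member near Fos, and Gm51485 and Gm34700 because theirs are the 2 strongest members whose window holds the AP-1 motif. Capitals mark every match to 6 motifs searched on both strands, namely the AP-1 motif TGANTCA, the cAMP response motif TGACGTCA, the CCAAT box CCAAT, the GC box GGGCGG, the ETS motif CCGGAAG and the TATA box TATAAA. Their coordinates are chr7:73558346-73558645 (minus strand), chr12:85451801-85452100 (plus strand), chr7:65802301-65802600 (minus strand) and chr5:146700233-146700532 (plus strand), in the order printed.
Chaserr: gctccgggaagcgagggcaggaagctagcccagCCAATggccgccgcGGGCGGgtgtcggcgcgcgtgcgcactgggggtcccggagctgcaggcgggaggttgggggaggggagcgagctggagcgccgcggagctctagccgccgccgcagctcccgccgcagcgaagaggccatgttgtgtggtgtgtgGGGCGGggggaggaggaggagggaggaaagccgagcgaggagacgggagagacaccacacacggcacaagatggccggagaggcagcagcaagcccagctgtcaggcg
Gm38543: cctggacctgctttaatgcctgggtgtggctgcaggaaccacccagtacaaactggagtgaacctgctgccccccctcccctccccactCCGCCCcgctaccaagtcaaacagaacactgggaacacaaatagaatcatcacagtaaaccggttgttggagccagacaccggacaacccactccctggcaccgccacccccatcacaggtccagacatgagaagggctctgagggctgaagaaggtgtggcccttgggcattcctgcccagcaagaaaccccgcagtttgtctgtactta
Gm51485: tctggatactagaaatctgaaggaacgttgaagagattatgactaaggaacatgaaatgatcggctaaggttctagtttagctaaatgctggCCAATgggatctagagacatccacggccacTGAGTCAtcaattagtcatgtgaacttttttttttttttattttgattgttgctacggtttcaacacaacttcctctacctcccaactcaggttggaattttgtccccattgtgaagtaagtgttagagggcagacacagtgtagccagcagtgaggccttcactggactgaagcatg
Gm34700: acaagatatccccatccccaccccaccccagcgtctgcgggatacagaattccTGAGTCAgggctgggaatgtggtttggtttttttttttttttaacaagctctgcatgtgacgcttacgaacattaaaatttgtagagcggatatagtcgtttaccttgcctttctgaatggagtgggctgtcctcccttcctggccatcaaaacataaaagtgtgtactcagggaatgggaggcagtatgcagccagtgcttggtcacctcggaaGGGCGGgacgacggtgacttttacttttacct

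Other members hold miRNA genes, and these are printed because the hairpins themselves lie under the called region. The mature sequences, from RefSeq on GRCm38.p6, have the seed (bases 2 to 8) in capitals. Those of miR-212-3p and miR-132-3p share the seed AACAGUC and come from 1 member. Those of miR-23a-3p, miR-27a-3p and miR-24-3p come from another single member and have 3 different seeds.
let-7i-5p: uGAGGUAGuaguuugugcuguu
miR-212-3p: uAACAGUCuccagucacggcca
miR-132-3p: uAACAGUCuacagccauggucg
miR-203-3p: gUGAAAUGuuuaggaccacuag
miR-210-3p: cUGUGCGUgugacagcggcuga
miR-23a-3p: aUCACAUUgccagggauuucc
miR-27a-3p: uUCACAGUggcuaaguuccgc
miR-24-3p: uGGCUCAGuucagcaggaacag

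Strength is given as the authors' fold enrichment, the pileup at a summit plus 1 over the expected background plus 1, where the background was 7.63 at every base. Over all 113404 regions the median fold at the strongest summit was 4.99 (25th to 75th percentile, 3.13 to 11.0). A summit lay at an outer end of 17 of 18 absorptive colonocyte genes and 17 of 18 stem cell genes of the lists used below, against 6 of 14 leukocyte genes and 7 of 14 fibroblast, endothelial and muscle genes. It did so at 7 of 12 goblet and secretory progenitor, 8 of 10 tuft cell and 4 of 10 enteroendocrine genes, and at 65.5% of the 20665 protein-coding genes on the autosomes. The depth of each library is unknown. Exact Poisson intervals on the recovered pileups and Wilson intervals on shares are 95% intervals that cover counting error only, and neighbouring regions are not independent.

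Members were strong and wide for regions between genes. Their strongest summit had a median of 17.7-fold (25th to 75th percentile, 9.16 to 28.6) and ranged from 2.43 to 90.9-fold, against a median of 4.75-fold (3.25 to 8.70) in the 26478 regions with 1 or 2 summits at the same distances from genes. Of the members, 133 (11.9%, 10.2 to 14.0%) reached 40-fold, against 1.10% (0.98 to 1.23%) of the regions with 1 or 2 summits, and 301 (27.0%, 24.5 to 29.7%) stayed under 10-fold, against 79.6% (79.1 to 80.05%). The strongest summit of a region is the highest of its records, so a region with more records has more chances of a high value. How far this bears on the gap was not tested. Median width was 1822 bp (1463 to 2253) in members and 445 bp (322 to 660) in the regions with 1 or 2 summits. In all, members covered 2067 kb, held 3781 summits, and made up 4.01% (3.79 to 4.25%) of the regions between genes at 1 to 100 kb.

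The order turned round when width was held alike. Among regions 1500 to 2000 bp wide, the 381 members had a median of 17.9-fold, the 407 regions with 2 summits 26.7-fold, and the 66 regions with 1 summit 35.5-fold. At 1000 to 1500 bp the medians were 8.23-fold in 248 members, 13.7-fold with 2 summits and 24.1-fold with 1. In each of the 4 classes of width from 500 to 2500 bp, members had the lowest median and regions with 1 summit the highest, although the class from 2000 to 2500 bp held only 5 regions with 1 summit. From 2500 to 3000 bp members had 30.6-fold and the 9 regions with 2 summits 40.1-fold. Over the 1115 members, fold and width had a Spearman rho of 0.656, and fold and the number of summits 0.0136. These points share 1 peak list and its depth, and no p is given.

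**Figure D1:**
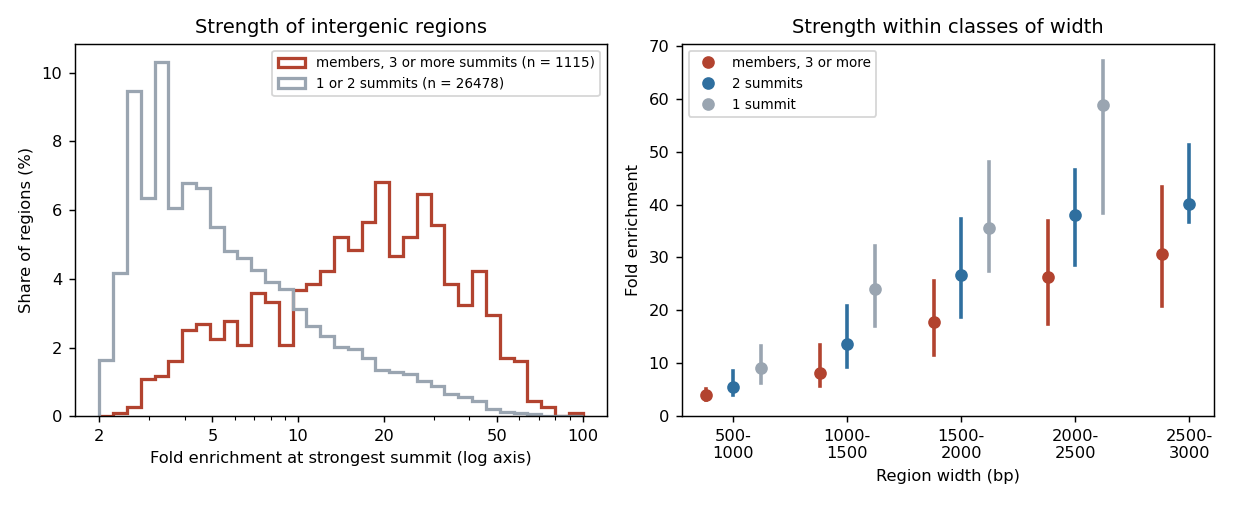
Left, the share of regions (%) at each fold enrichment of the strongest summit (log axis) for the 1115 members (red) and the 26478 regions with 1 or 2 summits (grey) between genes. Right, the median (point) and the 25th to 75th percentile (bar) of fold enrichment within classes of width (classes with under 5 regions left out): members centre on 17.7-fold against 4.75-fold, but sit below the other regions of the same width.

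Other multi-summit regions under 3 kb differed in strength by place. Members had a median of 17.7-fold, against 30.6-fold in 3103 such regions at a protein-coding gene end, 14.4-fold in 3282 inside genes and 19.1-fold in 115 farther than 100 kb from a gene end. Regions between genes that were 3 kb or wider, with 3 or more summits, had 35.4-fold (n = 214). At the width limit the 3 widest members, near Esrp1, Ywhaz and Spen, were 2997, 2996 and 2981 bp wide with 19.5, 53.8 and 29.4-fold. The 2 narrowest regions left out, near Plekhf2 and Nfkbia, were 3004 and 3036 bp wide with 19.1 and 21.2-fold. At the near distance limit the 3 closest members, near Ccnl1, Lrrk1 and Plscr2, had 5.56, 23.4 and 10.9-fold at 1009, 1010 and 1019 bp, and the 3 regions just inside it, at Nipal1, Dipk1a and Rtn4rl1, had 3.25, 19.7 and 9.51-fold at 991, 978 and 977 bp. At the far limit the last 3 members, near Selenop, Stx16 and Akr1e1, had 3.01, 45.4 and 32.1-fold at 96129, 97593 and 98348 bp, and the next 3 regions, near Gadd45a, Gm38457 and Klf14, had 7.19, 23.2 and 48.0-fold at 101585, 102117 and 102969 bp.

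Most members had 3 summits of unequal height. There were 796 members (71.4%) with 3 summits, 233 with 4, 63 with 5, 17 with 6, 4 with 7 and 2 with 8. Neighbouring summits lay a median of 480 bp apart (339 to 620), and 84.8% of the 2666 gaps were between 200 and 800 bp. The second summit had a median of 60% of the fold of the strongest. In 451 members it was under 50%, and these had a median of 25.4-fold at the strongest summit. In 307 members it was at least 80%, and these had 10.9-fold. No summit in the list was under 2.09-fold, so the second summit of a weak member cannot be a small share of the strongest. The weakest member with a second summit under 50% had 5.68-fold, and the 2 medians are in part set by this floor. Position showed little preference in the 796 members with 3 summits, where the strongest was the middle summit in 293 (36.8%, 33.5 to 40.2%) and an outer summit in the other 503.

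The 10 strongest members were mostly of the kind with a single tall summit. The first, chr15:75085385-75087123, had summits of 90.9-fold (84.6 to 97.5), 17.3-fold and 15.7-fold, and lay 21317 bp past the end of Ly6c2, which encodes a surface protein of the Ly6 family. Of the 50 kb around it 4.83% was called. The second, chr5:43947195-43950004, reached 74.2-fold (68.6 to 80.2) at 30588 bp past the end of Fgfbp1, a secreted carrier of fibroblast growth factors, with lesser summits of 24.1 and 16.8-fold. The third, chr7:73556559-73559475, reached 72.3-fold (66.8 to 78.2), and its nearest coding gene was Chd2, a chromatin remodeller, at 16883 bp. Its strongest summit lay 234 bp before the start of Chaserr, a lncRNA known in mouse to restrain Chd2, whose window is printed above and holds 1 CCAAT box and 2 GC boxes.

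The next members by strength overlapped in their intervals. A member near Atp11b, a subunit of a phospholipid flippase, had 72.2-fold (66.7 to 78.1) at chr3:35719865-35722280. One near Rassf7, at chr7:141220556-141223018, had 71.3-fold (65.8 to 77.2) and holds Mir210. One 12397 bp before the start of Cldn4, a claudin of epithelial tight junctions, had 70.6-fold (65.1 to 76.4) at chr5:134958713-134960985, and its second summit had 3.83-fold, 5.42% of the strongest. Near Ifngr1, a chain of the interferon gamma receptor, a member had 69.6-fold (64.1 to 75.4) at 60311 bp. A member near Ppil4, a relative of the cyclophilins, had 69.0-fold (63.6 to 74.8) at chr10:7786291-7788125, with a second summit of 14.6-fold.

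The members with the most summits were weak and flat. The 5 that were named for their summit number lay near Rims2 and Eef1a1, with 8 summits each, and near F3, Ccnl1 and Rpl3, with 7 each. The regions near Rims2 and Ccnl1 ran into the gene, and several of the summits near Rims2 lay inside it. Their strongest summits had 6.26-fold (4.72 to 8.15) near Rims2, 5.80-fold near Eef1a1, 5.68-fold near F3, 5.56-fold near Ccnl1 and 5.22-fold near Rpl3, and no summit of these 5 members was under 2.20-fold. The lowest fold in the whole list was 2.09, which limits how uneven such weak members can be. Eef1a1 encodes the translation elongation factor that carries tRNA to the ribosome, Rpl3 a ribosomal protein, F3 tissue factor and Ccnl1 a cyclin linked to splicing. Another member with 7 summits, near Cyp2c55, tied with that near Rpl3 at 5.22-fold. Near Ccnl1 the 7 summits ran between 3.83 and 5.56-fold. All 5 lay within 5 kb of the gene end, and those near Eef1a1, F3 and Ccnl1 lay past the 3′ end. Over the 23 members with 6 or more summits, the median was 9.16-fold, 12 were under 10-fold and 17 lay within 5 kb of a gene end.

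**Figure D2:**
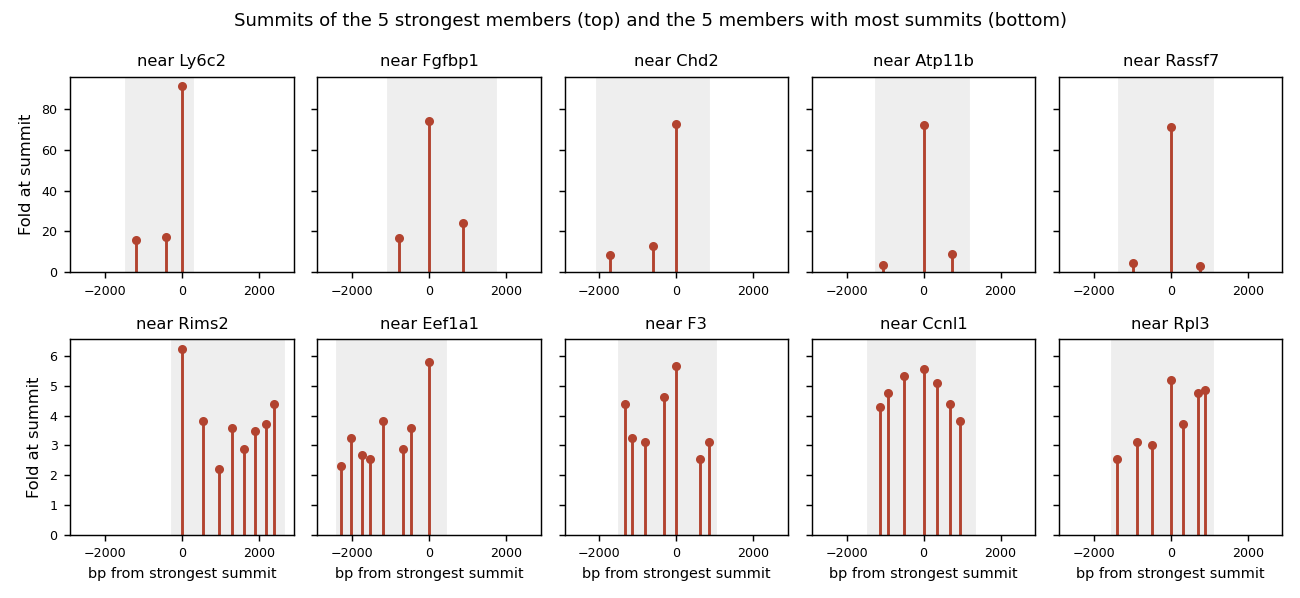
Fold enrichment at each summit (line and point) against its distance in bp from the strongest summit, for the 5 strongest members (top) and the 5 members with most summits (bottom), with the called region shaded and a separate fold axis for each row. The top members have 1 summit of 71.3 to 90.9-fold with far lower flanks, whereas the bottom ones have 7 or 8 summits, none above 6.26-fold.

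Members lay somewhat nearer to genes than other intergenic regions. The median distance from the strongest summit to the nearest protein-coding gene end was 11271 bp (4490 to 26801) in members and 13357 bp (5135 to 32002) in regions with 1 or 2 summits. Within 25 kb lay 73.2% (70.5 to 75.7%) of members and 67.8% (67.2 to 68.4%) of the regions with 1 or 2 summits. Members at 1 to 2 kb had a median of 12.6-fold (n = 107), those at 2 to 5 kb 14.7-fold, those at 5 to 10 kb 16.9-fold, those at 10 to 25 kb 19.4-fold, those at 25 to 50 kb 20.1-fold and those at 50 to 100 kb 19.9-fold. The rho of fold and distance over members was 0.159. Some members reached a gene with part of their length: 14.0% overlapped an annotated gene outside their strongest summit, and 6.55% had a weaker summit less than 1000 bp from a coding end.

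The side of the nearest gene went with strength. Its strand could be read from RefSeq for 860 members. Among those with a strand, 56.7% (50.5 to 62.8%) of members under 10-fold lay past the 3′ end, against 44.6% (43.8 to 45.3%) of regions with 1 or 2 summits under 10-fold. Members of 40-fold or more lay there in 35.8% (26.9 to 45.8%), against 38.7% (32.6 to 45.1%). Close to genes the contrast was wider: of 90 members under 10-fold and within 5 kb, 66 lay past the 3′ end (73.3%, 63.4 to 81.4%), against 48.5% (47.0 to 50.1%) of such regions with 1 or 2 summits. Of the 30 members with 5 or more summits and under 10-fold, 21 had a strand and 16 of these lay past the end, and the median distance of the 30 was 3453 bp.

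Members shared 929 nearest protein-coding genes, of which 791 had 1 member, 107 had 2 and 31 had 3 or more. These genes mostly had open chromatin at an end: 85.7% (83.3 to 87.8%) had a summit within 1000 bp of an outer end, against 74.9% (73.9 to 75.8%) of genes that were nearest to regions with 1 or 2 summits only. Summits of the members themselves count here, and 73 members had a weaker summit less than 1000 bp from a coding end. The share without such summits was not computed, so the gap is in part set by wide regions that reach a gene. In 461 members (41.3%) the strongest summit exceeded every summit at the ends of the nearest gene, which includes 146 members whose gene had none there. That share was not computed for regions with 1 or 2 summits, so it is not a trait shown for members alone. Weaker summits of a member itself can be among those at the ends in this comparison too. The nearest gene is a label of position, and which gene a region acts on was not measured.

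Irf2bp2 and Phlda1 had the most members, 7 each. Irf2bp2 (NCBI Gene 270110, chr8:126588296-126593986) encodes a transcriptional corepressor that binds IRF2. Its members had 57.4, 46.0, 33.9, 27.9, 13.6, 12.52 and 3.83-fold, lay between 3639 and 72582 bp from the gene on both sides, and were 7 of its 24 intergenic regions. The strongest, chr8:126538651-126540984, lay 48383 bp past the end and had 57.4-fold (52.4 to 62.7), beside 53.0-fold at the end of the gene itself. Phlda1 (NCBI Gene 21664, chr10:111506286-111508649) encodes a pleckstrin homology-like protein induced by growth factor signals. All its 7 members lay on the higher-coordinate side, at 3317 to 70092 bp, with 42.4, 30.03, 29.7, 20.5, 18.8, 18.5 and 2.90-fold, and were 7 of 23 intergenic regions. A stronger region on that side, at 67542 bp with 59.5-fold and 6 summits, was 3 kb or wider and so not a member.

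Ywhaz, Ptma and Dusp5 had 5 members each. The members of Ywhaz, an adaptor that binds phosphorylated proteins, fell into 3 flat ones of 4.06, 4.75 and 6.14-fold within 10 kb on the lower-coordinate side and a pair of 15.3 and 53.8-fold at 52768 and 96002 bp on the other. Ptma, prothymosin alpha, had members of 47.5, 41.2, 13.9, 13.1 and 4.06-fold, the strongest at chr1:86486931-86489194, 38968 bp before its start. Dusp5, a nuclear phosphatase of ERK, had a run of 5 past its 3′ end between 1883 and 12782 bp. The first 4 of that run were flat, with 4.87, 4.06, 4.06 and 4.87-fold going outward, and the fifth, chr19:53553497-53556096, had 21.0-fold (18.05 to 24.3). The end of Dusp5 itself had 57.0-fold.

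Other genes with several members were Irf2bpl, a relative of Irf2bp2, Errfi1 and Hoxa13, with 4 each. The members of Irf2bpl had 12.52 to 33.7-fold, all within 12759 bp of the gene. Hoxa13, a homeobox gene of the hindgut, had members of 26.8, 16.5, 8.93 and 7.07-fold out of 9 intergenic regions, and 67.8% of the 50 kb around the one past its end was called. Actb, the cytoskeletal actin gene, had 3, of 60.9, 17.7 and 16.2-fold, and Bhlhe40, a circadian repressor, had 3, of 55.5, 34.0 and 27.2-fold.

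**Figure D3:**
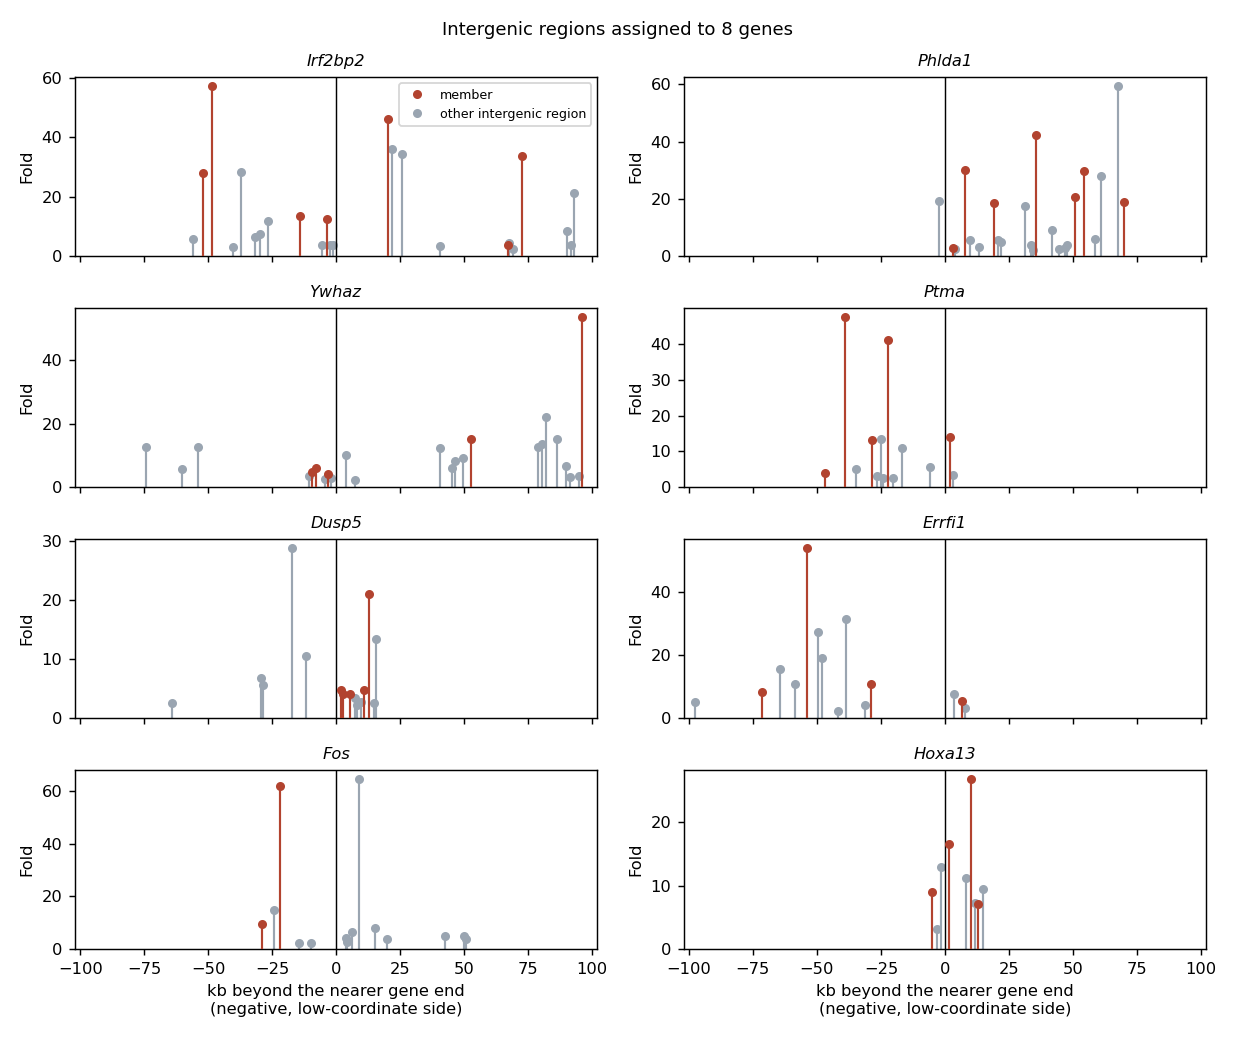
Fold enrichment of every intergenic region assigned to 8 genes against its distance in kb beyond the nearer end of the gene (black line; negative values on the lower-coordinate side), with members in red and other intergenic regions in grey. Members lie on both sides of Irf2bp2 and on 1 side of Phlda1, and 4 of the 5 at Dusp5 are under 5-fold.

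Near the genes of AP-1 itself there were 3 members, at Fos and Fosl2. Of the members 0.269% (0.0915 to 0.788%) had a nearest gene among 15 AP-1 subunits and partners, against 0.219% (0.170 to 0.283%) of regions with 1 or 2 summits, so the intervals overlapped. The stronger member of Fos, an AP-1 subunit induced within minutes of a stimulus, was chr12:85450780-85453186 with summits of 61.9-fold (56.8 to 67.4), 5.56-fold and 2.78-fold. It lay 22058 bp before the start of Fos, with its strongest summit 219 bp before the start of the lncRNA Gm38543, whose printed window holds a single GC box and no AP-1 motif. A second member 29116 bp before Fos, chr12:85444396-85445846, had 9.51, 6.26 and 3.25-fold. A stronger region 8800 bp past the end of Fos, with 64.6-fold and 4 summits, was 3 kb or wider and so not a member. The member of Fosl2, another Fos family subunit, had 37.0-fold (33.0 to 41.3) at chr5:32190631-32192913, 34376 bp past its end. Jun, Junb, Jund, Fosb, Fosl1 and Atf3 had no member, although Jun had 6 and Atf3 8 intergenic regions with 1 or 2 summits.

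The list of the EGF receptor pathway and its feedback inhibitors had the most members. These organoids were grown with EGF, whose receptor signals through Ras and ERK and induces its own inhibitors. Of the members, 22 had a nearest gene in this list (1.97%, 1.31 to 2.97%), against 121 of the regions with 1 or 2 summits (0.457%, 0.383 to 0.546%), and they belonged to 7 of its 16 genes. Phlda1 with 7, Dusp5 with 5 and Errfi1 with 4 made up most of the 22, so the count rests on few places, and the genes were listed with earlier results of these data known. Errfi1, an inhibitor that binds the receptor kinase, had members of 54.1, 10.8, 8.23 and 5.56-fold. In the strongest of these, chr4:150798306-150800883, the second summit of 50.2-fold was nearly as high as the first of 54.1-fold (49.3 to 59.3). Spry2, an inhibitor of Ras signalling, had 3 members, of 35.4, 20.8 and 14.8-fold, at 76026 to 89027 bp past its end. Btc, an EGF receptor ligand, had 1 of 53.0-fold, Spred1 1 of 21.7-fold and the ERK phosphatase Dusp6 1 of 3.01-fold. None lay nearest to Egfr, Erbb2 or Erbb3, the receptors.

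Of 20 epithelial transcription factor genes 7 had members, 9 in all (0.807%, 0.425 to 1.53%, against 0.631% of regions with 1 or 2 summits). The strongest were near Klf6, a zinc finger factor, with 47.7, 41.3 and 38.3-fold at its 3 summits, and near Elf3, an ETS factor of epithelia, with 37.3-fold. Klf5, a factor of crypt cells, had a member of 28.2-fold at 80403 bp and a flat one of 9.16-fold at 2541 bp. In the absorptive colonocyte list 5 genes had 1 member each (0.448%, 0.192 to 1.05%, against 0.321%, 0.260 to 0.397%), led by the intestinal identity factors Cdx2 (35.4-fold, 6 summits, the strongest 1105 bp past the end) and Hnf4a (31.4-fold). Some weaker summits of the Cdx2 member lay inside the gene. Stem cell and Wnt response genes had 7 members of 5 genes (0.628%, 0.304 to 1.29%, against 0.287%, 0.229 to 0.359%). Those of Ephb2, an ephrin receptor of the crypt base, and Lrig1, a regulator of growth factor receptors, had 32.7 and 23.5-fold, and Axin2, a Wnt feedback inhibitor, had 11.0-fold.

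The lists of repair, inflammation and adhesion had members in shares whose intervals overlapped those of regions with 1 or 2 summits. In the fetal-like and regenerative list there were 8 members of 5 genes (0.717%, 0.364 to 1.41%, against 0.310%, 0.250 to 0.384%). Areg, an EGF receptor ligand beside Btc on chromosome 5, had 3, of 33.0, 14.8 and 7.88-fold, and Msln, mesothelin, had 1 of 21.8-fold. A pair of flat members of 6.49 and 3.94-fold lay past the end of Anxa2, which encodes a membrane-binding annexin. In the list of NF-κB and inflammation, 5 members belonged to 4 genes (0.448%, 0.192 to 1.05%, against 0.317%, 0.256 to 0.393%). Tnfaip3, a feedback inhibitor of NF-κB, had 43.5 and 17.5-fold, Saa3, an acute-phase protein gene, 19.9-fold, the chemokine gene Cxcl1 12.6-fold and Nfkbiz 8.46-fold. Genes of integrins, laminins and the cytoskeleton had 6 members (0.538%, 0.247 to 1.17%, against 0.325%, 0.263 to 0.401%), led by Krt19 (29.4-fold) and Itgb4 (26.9-fold).

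The lists of secretory cells are short. The goblet and tuft shares were not lower in members than in regions with 1 or 2 summits, with overlapping intervals. The 12 goblet and secretory progenitor genes had 3 members (0.269%, 0.0915 to 0.788%, against 0.185%, 0.140 to 0.245%), at Clca1, a secreted goblet protein (45.3-fold), Agr2, which helps fold mucin (22.8-fold), and Creb3l1 (17.2-fold). The 10 tuft cell genes had 2 (0.179%, 0.0492 to 0.652%, against 0.0718%, 0.0459 to 0.112%), at Sh2d6 (21.2-fold) and Gfi1b (18.9-fold). Small intestine and stomach genes had 1 (0.0897%, against 0.0604%), at Apob (9.97-fold). No member was nearest to an enteroendocrine, leukocyte, or fibroblast, endothelial and muscle gene, a share whose interval runs up to 0.343% for each list, against 10, 15 and 24 regions with 1 or 2 summits (0.0378%, 0.0567% and 0.0906%), so the absence was not distinguishable from those shares at this number of members.

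**Figure D4:**
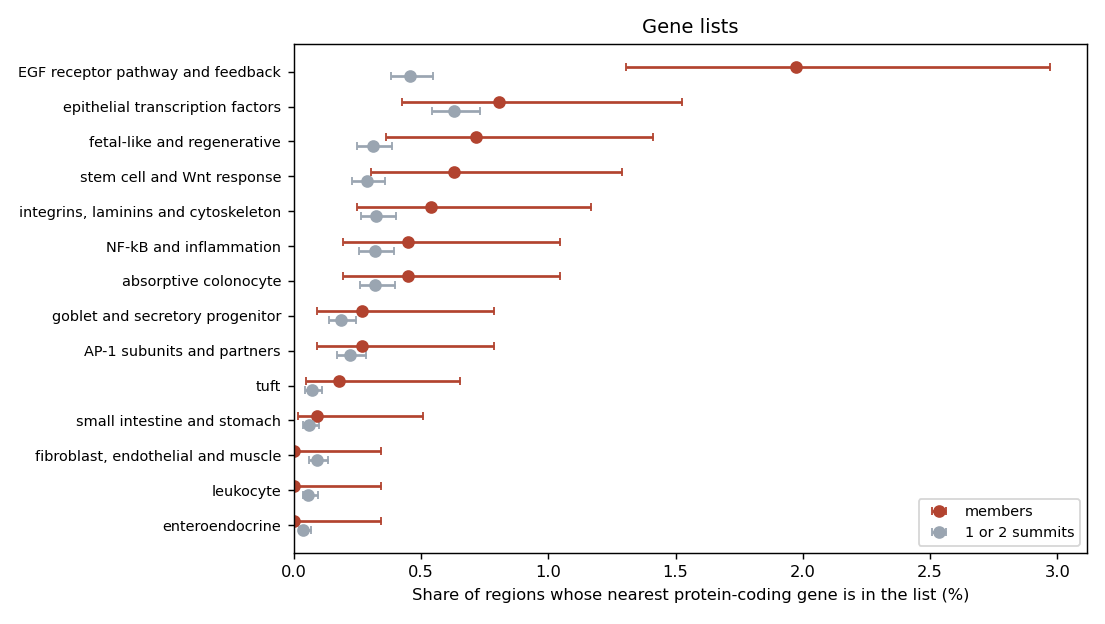
Share of regions (%) whose nearest protein-coding gene belongs to each of 14 gene lists, for members (red, upper) and regions with 1 or 2 summits between genes (grey, lower), with 95% Wilson intervals as bars. The EGF receptor pathway list stands at 1.97% of members against 0.457%, with intervals apart, while those of every other list overlap. Its 22 members belong to 7 of 16 genes, mostly Phlda1, Dusp5 and Errfi1, and regions at 1 gene are not independent. The list was made with earlier results of these data known, so the gap between intervals is no test.

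An end of a noncoding gene lay within 1 kb of the strongest summit in 131 members (11.7%, 9.99 to 13.8%), against 5.26% (5.002 to 5.54%) of regions with 1 or 2 summits. A lncRNA end was within 1 kb in 82 members (7.35%, 5.96 to 9.04%), against 3.36% (3.15 to 3.59%) of regions with 1 or 2 summits. Members at a lncRNA end had a median of 22.6-fold, against 17.4-fold in the 1033 other members. By strength, the shares were 3.99% (2.30 to 6.84%) in members and 3.14% (2.92 to 3.39%) in regions with 1 or 2 summits under 10-fold, 8.22% (6.39 to 10.5%) and 3.98% (3.48 to 4.56%) at 10 to 40-fold, and 10.5% (6.37 to 16.9%) and 8.25% (5.60 to 11.98%) at 40-fold or more. The intervals were apart at 10 to 40-fold and overlapped in the other classes. Pseudogenes went the other way, with an end that near in 3 members (0.269%, 0.0915 to 0.788%), against 1.25% (1.12 to 1.39%). RefSeq promoter windows of any gene were overlapped by 76 members (6.82%, 5.48 to 8.45%), against 1.07% of regions with 1 or 2 summits, but a wider region overlaps a window more easily. By the strongest summit alone, which does not depend on width, 34 members (3.05%, 2.19 to 4.23%) lay in such a window, against 0.797% (0.697 to 0.911%). The window shares were not split by strength. One of the 76 is the 16.5-fold member at Hoxa13, which overlaps the promoter window of the lncRNA Hottip, a transcript of that Hox cluster.

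In 35 lncRNA promoter windows the strongest summit of a member fell inside the window itself. Gm38424, near Mrpl33, was counted with overlapping windows that start at 31596693 and 31596705 on chromosome 5, so the 35 are not all independent. The AP-1 motif occurred in 6 of these 35 (17.1%, 8.10 to 32.7%), against 7.81% of 32851 RefSeq promoter windows and 9.31% of the 11588 lncRNA windows among them. The 6 lay in members of 43.5, 35.2, 25.6, 22.6, 21.8 and 13.4-fold, near Pcsk6, Usp12, Art2b, Atp5mpl, Cdk18 and Dennd4c. In the printed windows of Gm51485 and Gm34700 the match reads TGAGTCA. The ETS motif was also in 6 of 35, against 8.86% of all and 3.89% of lncRNA windows. GC boxes were in 37.1%, against 35.7% of all and 16.3% of lncRNA windows, CCAAT boxes in 14 of 35, against 37.4% and 35.97%, and TATA boxes in 11.4%, against 13.6% and 15.5%. The 35 windows had a median of 55% G and C bases and 8 CG pairs, against 48.3% and 4 in all lncRNA windows. The motif shares were not adjusted for this composition. The cAMP response motif was in none of the 35, against 1.79% of all windows. A match describes letters and not binding, the windows cover only members at an annotated lncRNA start, and with 35 windows the intervals are wide.

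Genes of tRNAs were found in 32 members (2.87%, 2.04 to 4.02%), against 52 of the regions with 1 or 2 summits (0.196%, 0.150 to 0.257%). A wider region holds a gene more easily, and by the strongest summit alone a tRNA end lay within 1 kb in 2.78% (1.97 to 3.92%) of members, against 0.245% (0.193 to 0.313%). Members are also stronger than the regions with 1 or 2 summits, and the tRNA shares were not split by strength. Genes of tRNAs are small, are read by RNA polymerase III and often lie in clusters. The 32 members held 56 tRNA genes, and 53 of the 56 had a summit within 200 bp of their middle. Of the 112 summits in these members, 56 lay that near to a tRNA gene, and 16 of the 32 members held 2 or more tRNA genes. Neighbouring summits of all members lay a median of 480 bp apart, so 200 bp to either side of each summit covers much of a member. The shares that position alone would give were not computed. The 4 tRNA genes in each of 3 members, near Aurkb (38.5-fold), Borcs6 (31.9-fold) and Cfap126 (26.7-fold), all had such a summit. Among the 32 the median was 24.6-fold, and 11 were on chromosome 13. Genes of tRNAs have near-identical copies, and how reads matching several copies were placed is unstated in the labels.

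**Figure D5:**
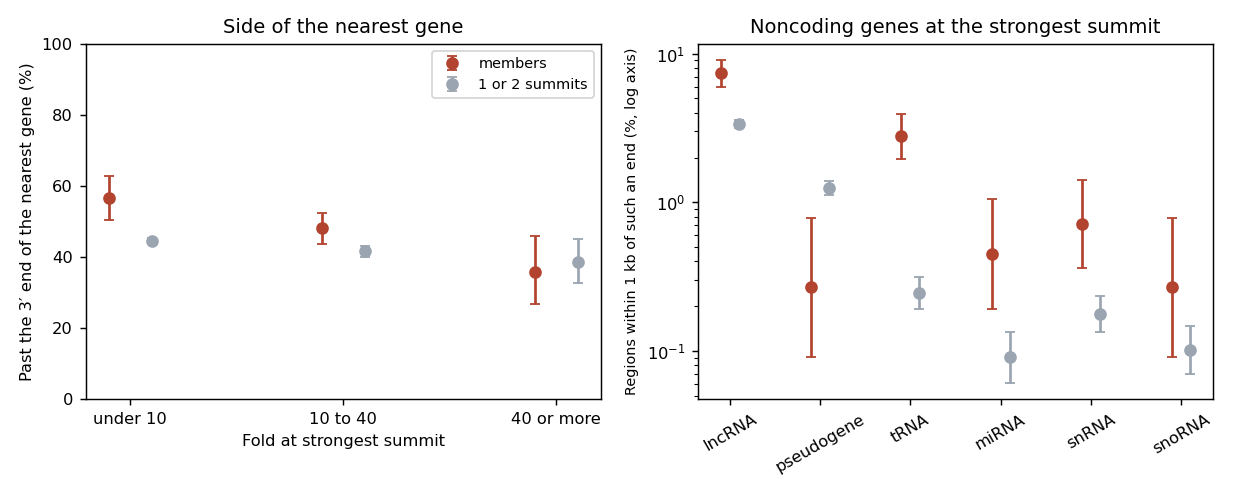
Left, share of regions (%) that lay past the 3′ end of the nearest protein-coding gene in 3 classes of fold enrichment. Right, share of regions (%, log axis) whose strongest summit lay within 1 kb of an end of 6 kinds of noncoding gene, not split by strength. Members are red, regions with 1 or 2 summits grey, and bars are 95% Wilson intervals; weak members lay past the 3′ end more often (56.7% against 44.6%), and members stood at tRNA ends in 2.78% against 0.245%.

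The genes of miRNAs lay in 7 members (0.628%, 0.304 to 1.29%), against 10 of the regions with 1 or 2 summits (0.0378%). Width bears on this count too, and by the strongest summit alone a miRNA end lay within 1 kb in 5 members (0.448%, 0.192 to 1.05%), against 0.0906% (0.0609 to 0.135%). The miRNA shares were not split by strength either. Mirlet7i was in a member near Mon2 with even summits of 22.0, 20.6 and 15.8-fold, the strongest 21 bp from the hairpin. Mir212 and Mir132, whose mature forms share the seed printed above, lay together in a member near Ovca2 with 21.2, 19.7 and 8.35-fold. Mir203, known from differentiating epithelium, was in a member of 5 summits and 27.1-fold near Aspg. Mir210, known as a hypoxia-induced miRNA, lay 416 bp from the 71.3-fold summit near Rassf7. The cluster of Mir23a, Mir27a and Mir24-2 lay in a flat member near Zswim4 whose 4 summits ran from 2.20 to 3.94-fold. The other 2 members held Mir5103 (23.8-fold) and Mir7688 (11.4-fold). An open hairpin does not show that the miRNA is made, and the start of its primary transcript can lie elsewhere.

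Most members had another called region close by. The neighbour counts, gaps and called shares below were computed for members only, so they do not set members apart. Another called region lay within 5 kb of 993 members (89.1%, 87.1 to 90.8%) and within 25 kb of 1104 (99.0%, 98.2 to 99.4%). Another member lay within 5 kb of 155 (13.9%, 11.99 to 16.1%) and within 25 kb of 308 (27.6%, 25.1 to 30.3%). The median gap to the nearest region was 782 bp, and 41.7% had a gap under 500 bp. Of the 50 kb around a member a median of 17.4% was called, and in 30 members over 50% was. The densest surroundings were those of a 6.84-fold member near Epha2, a receptor of ephrins, with 74.4%, and of a 4.99-fold member near Hjurp with 72.1%. The fold values use 1 background for the whole genome, so copy number was not divided out of any of them. Across the 19 chromosomes, members made up 4.0% ± 0.612 (SD, n = 19 chromosomes) of the intergenic regions at these distances.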

How the data were processed

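The 4 libraries are described by the labels; the values came from 1 narrowPeak list deposited for the series. The submitters' processing notes name Bowtie2, MACS2 and the build mm10 but no version; thresholds and the libraries used are unstated. In 100% of records the deposited score was −log10 q multiplied by 10 and cut to a whole number. The fold at a summit is the authors' linear ratio to background. In the authors' deposited table −log10 p was never under 3.02 and −log10 q never under 1.51. Fold values were whole numbers over 1 constant in 100% of records (tolerance 0.01). Poisson tails around 7.63 matched the deposited −log10 p to 6.03e-06, which gave each pileup (lowest 17). These are values of a peak, used only within the list.

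Records with the same start and end were joined into regions and placed by their strongest summit. Genes came from an NCBI table on GRCm38.p6 (49997 genes, outer bounds only), so an end can be a start or a 3′ end; strand was read from the RefSeq promoter table where it lists the gene. No test was run, since there is 1 list and no replicate. The members and the 14 gene lists (218 genes, 217 found) were chosen with earlier results of these data known. Named were the 10 strongest members, the 5 with most summits, the 5 genes with most members, all members of AP-1 genes, the 2 strongest of each other list and regions beside the limits. Other names, the tRNA, miRNA and lncRNA counts, the classes of strength and the motifs besides that of AP-1 were chosen after the values were seen. Of the regions this rule names, 3 are not reported here. Beyond the lncRNA windows, sequence at summits was not analysed here. The code of the rule was run on simulated data: 2000 of 2000 regions placed around real genes were classed as made. The simulated classes used the same limits and genes, so this checks the code only. Alternatives varied the q value, summit number, width, gene overlap and distance. Work used Python 3.11.15, numpy 2.4.6, pandas 2.3.3, scipy 1.17.1 and matplotlib 3.10.9.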

Additional observations from a re-analysis of the deposited data

How the results depend on the processing

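Of 42 values recomputed under other choices, 20 stayed close to the reported ones (counts within 1.5 times, medians and shares within their 95% intervals) and 22 moved; the cause was not tested beyond the change in regions each choice makes. The 1115 members became 544 with only summit records of −log10 q of at least 10, 4150 with at least 2 summits, 319 with at least 4 and 684 under 2000 bp. The median of 17.7-fold (16.7 to 18.8) became 21.7, 11.0, 18.9 and 12.4-fold in the same 4 settings and 19.5-fold under 5000 bp. Distinct nearest genes, 929, became 493, 2715, 286 and 616. Members of AP-1 genes, 3, became 1, 8, 0 and 1, and 6 where only protein-coding genes had to be avoided. The share within 25 kb, 73.2%, became 76.8% with at least 4 summits and 80.2% at 2 to 50 kb. Another region lay within 5 kb of 89.1% of members and within 25 kb of 99.0%, against 97.1% at the distance between these that was set as the main one. No paired analysis was possible because each group is 1 library and the list has no column for a library; for the same reason no library could be left out. The planned motif search at summits was not run, because it needs a genome sequence, which was not used here. Depth per library is unknown, and a summit needed a pileup of at least 17.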
